A study of Arabidopsis thaliana with 30 samples.

Results

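A set of 111 probe sets, of 22746 that are not controls on the array (0.488%), was higher in hypoxic than in non-stressed Arabidopsis seedlings at both 2 h and 9 h and was lower again after 1 h back in air. A probe set belongs to the set where its mean signal in total RNA was at least 1 log2 unit higher under hypoxia at 2 h, at least 1 higher at 9 h, and at least 1 lower in recovered seedlings than after 9 h of hypoxia. The members were thus chosen by total RNA means, which are given here as a description with no test. Of the members, 72 have a single gene in the probe table, which makes 71 genes because AT5G54130 is measured by a pair of probe sets. A further 38 have no gene name in that table and 1 is assigned to several genes.

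Plant cells sense low oxygen largely through group VII ethylene response factors, which are degraded in air by the N-degron pathway and accumulate when oxygen is short. They switch on a set of core hypoxia genes, found in all seedling organs, that serve fermentation, sugar use and feedback on the response itself. When air returns the factors become unstable again, and transcripts that turn over fast can drop while other hypoxia transcripts persist.

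The study used seedlings of 7 days in the Col-0 background that all carried 35S:His6FLAG-RPL18B, a tagged protein of the large cytosolic ribosomal subunit under the 35S promoter, which is active in most cells. The labels describe the line as carrying a single copy of the transgene, and the non-stressed controls carried it too. The 5 conditions were non-stress for 2 h, hypoxia for 2 h, non-stress for 9 h, hypoxia for 9 h, and hypoxia for 9 h followed by 1 h of recovery in air. Treatment began as the day's light ended, and whole seedlings were taken. Recovered seedlings were thus taken 1 h later than the 9 h groups, and no non-stress group was taken at that time. Differences of recovery from the 9 h groups, and shares of a rise left, therefore hold both the return of air and the later time. Total RNA and RNA of polysomes, which are pulled down through the tag, were each measured on Affymetrix arrays in 3 independent biological experiments, giving 30 arrays in 10 groups of 3.

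Signals are deposited log2 values. Total RNA arrays had nearly equal means (group means 5.76 to 5.79), whereas the polysomal group means were 5.36, 4.54, 5.36, 4.34 and 5.20 in the order of conditions above. Each polysomal array was therefore expressed relative to its own mean over all probe sets, and a polysomal change is a change relative to the average transcript on the array. Markers of leaf and root cells were both present: LHCB4.2, a light-harvesting protein, stood at the 98.2nd percentile of signals in non-stressed seedlings at 2 h, and the root glucosidase PYK10 at the 99.9th. All 4 root markers were lower in total RNA under hypoxia at 2 h and at 9 h (limma adjusted p 0.0134 or below). The log2 of their summed signals was 13.4 to 13.6 in non-stressed arrays at 2 h. It was 12.2 to 12.4 after 9 h of hypoxia and 12.0 to 12.3 after recovery. That sum is mostly PYK10, with a mean of 13.41 in non-stress at 2 h, where AT4G30170, the next highest, had 9.51. The leaf marker was lower too, by a change of -0.34 at 2 h and -2.05 at 9 h (limma adjusted p = 0.0088 and 1.2e-10), and rose by 0.41 from hypoxia to recovery (limma adjusted p = 0.0023). Its mean was 10.93 in both hypoxic groups. The larger difference at 9 h came with a higher non-stress level (11.27 at 2 h, 12.98 at 9 h). The part of these markers in the results was not tested. In whole seedlings, fewer cells of a type and less RNA per cell cannot be told apart.

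Replicate 2 of the 2 h hypoxia group stood apart from the other two. Its total RNA array was the lowest of the 3 for 79 of 111 members (71.2%, against 30.3% of all probe sets), and its polysomal array for 87 (78.4%, against 35.1%). Over the members, this array differed from the mean of the other two by a median of -0.38 in total RNA and -0.57 in polysomal RNA, beside 0.02 and 0.01 over all probe sets. Over 333 other probe sets that were higher by at least 1 at both times but missed the recovery step, it differed by -0.52 and -0.74, so the low array was not a feature of the members alone. For GAT1_2.1, which encodes a glutamine amidotransferase, the 3 total RNA arrays after 2 h of hypoxia read 9.89, 7.83 and 9.72. Without the replicate 2 array of that group the rule gave 119 members in place of 111.

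**Figure D1:**
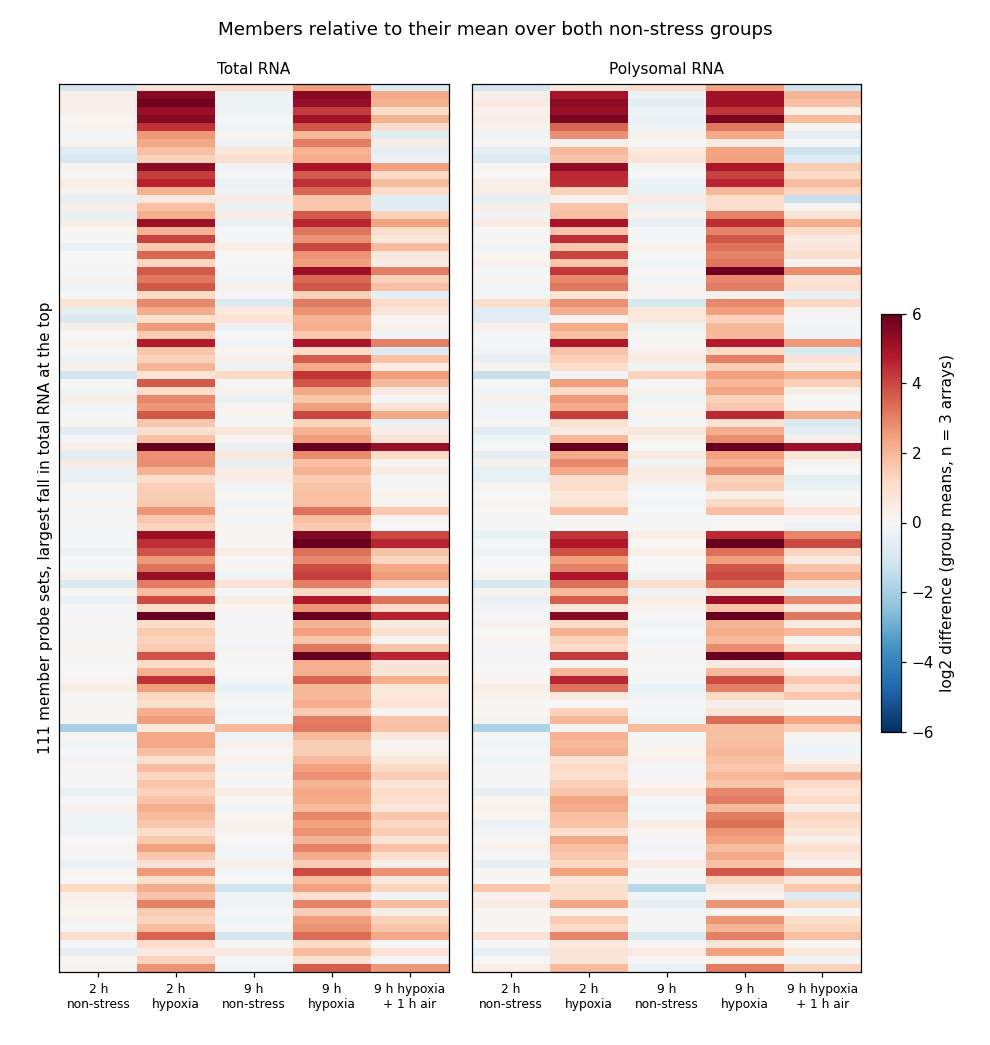
Mean log2 signal of the 111 members (rows, ordered by their fall in total RNA) in the 5 conditions, relative to each member's mean over both non-stress groups, in total RNA (left) and in mean-centred polysomal RNA (right), n = 3 arrays per group. Both hypoxia columns are red for nearly all members, the recovery column is paler, and some rows turn blue there.

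In total RNA the members were higher by 1.01 to 6.36 at 2 h (median 2.03) and by 1.02 to 7.25 at 9 h (median 2.41). From 9 h of hypoxia to recovery the log2 change ran from -3.30 to -1.01, with a median of -1.60. The signal left after that hour was 10.2% to 49.6% of the 9 h hypoxic signal, with a median of 33.0%. The fall was at least 2 log2 units in 25 members and at least 3 in 4. For none of the 111 did a recovery array reach any of the 3 arrays of 9 h hypoxia. The rule chose on these same arrays, which makes such a gap likely, and the share over all probe sets was not computed. The median SD within a group of 3 arrays was 0.19. The rule was met in each of the 3 replicate experiments taken alone by 76 members, in a pair of them by 25, in 1 by 8 and in none by 2, AT1G76590 and PCME. These are the arrays whose means chose the members, so the counts describe their spread and are no separate support.

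In all, 444 probe sets (1.95%) were higher by at least 1 at both times, and the members are 25% of them. Only 237 probe sets (1.04%) were lower by at least 1 after recovery, and the members make up 46.8% of those. The 2 h step was met by 2.55% of all probe sets and the 9 h step by 6.24%. Just inside the 2 h threshold lay PCME, an isoprenylcysteine methylesterase, at 1.01 and AT3G56360 at 1.03, and just outside it AT1G62840 at 0.94 and AT3G23880 at 0.93. The nearest values at 9 h were AT4G24060 at 1.02 and AT5G54630 at 1.03 inside, and AT3G12150 and AT2G21185, both at 0.99, outside. At recovery AT2G36220 and AT4G24060, both at -1.01, were inside, and AT4G31020 at -0.96 and AT2G29310 at -0.95 were outside. The recovery step alone separated the members from 333 other probe sets that were higher at both times.

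The polysomal arrays were not used by the rule, although that RNA came from the same seedlings. In them 102 members rose at 2 h (limma adjusted p under 0.05), where 14.5% of all probe sets rose, with a median change of 1.91. At 9 h 103 members rose, against 20.4% of all probe sets, with a median of 2.21. From 9 h of hypoxia to recovery 98 members fell, against 16.3% of all probe sets, with a median of -1.82 beside -0.04 over all probe sets. The same 92 members rose at both times and then fell. Of the 333 other probe sets that were higher at both times, 322 rose in polysomal RNA at 2 h (median 1.70). At 9 h 325 of them rose (median 2.32), so the polysomal rises were not particular to the members. At recovery 155 of the 333 fell in polysomal RNA and 22 rose, with a median of -0.58. A step of at least 1 log2 unit in all 3 directions was found in polysomal RNA for 75 of 111 members (67.6%), which are 21.9% of the 343 probe sets (1.51%) with such steps there. On the deposited polysomal values, without centring, 38 members had them. Without the replicate 2 array of the 2 h hypoxia group, 103 members rose at 2 h.

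The 9 h hypoxic arrays enter both the 9 h rise and the recovery fall, so these are not independent of each other. Of the members 16 lay among the dimmest 40% of probe sets in non-stressed seedlings at 2 h. After 9 h of hypoxia 0 did, but the rule itself favours high signals in that group.

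The largest fall of a named gene was that of AT4G10270, a member of the wound-responsive family of small proteins and a core hypoxia gene. Its total RNA signals were 7.23, 7.44 and 6.98 in non-stress and 12.27, 12.51 and 12.55 in hypoxia at 2 h. At 9 h they were 6.40, 7.05 and 6.48 in non-stress and 12.28, 12.41 and 12.43 in hypoxia, and after recovery they were 9.10, 9.24 and 9.28. The recovered arrays thus formed a narrow group between the 2 states, with a change of -3.17 from hypoxia and 44.7% of the log2 rise left. In polysomal RNA it rose by 4.72 ± 0.14 (SE, n = 3 arrays per group) at 2 h and 5.33 ± 0.14 at 9 h and fell at recovery (log2 change -3.01 ± 0.14, limma adjusted p = 5.6e-09). AT4G33560, of the same family, was higher by 4.83 and 4.93 in total RNA and had a recovery change of -2.18. Its polysomal RNA fell too (-2.25 ± 0.16, limma adjusted p = 1.9e-07).

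AT3G10040 encodes HRA1, a trihelix transcription factor that is itself a target of the group VII factor RAP2.12 and attenuates it. In total RNA it read 4.46, 5.05 and 5.06 in non-stress and 9.51, 10.15 and 9.48 in hypoxia at 2 h. The 9 h values were 4.39, 4.03 and 4.19 in non-stress and 8.73, 8.87 and 8.51 in hypoxia, and recovery gave 5.46, 5.41 and 5.88. The recovered arrays lay above those of 9 h non-stress, yet closer to them than to hypoxia, with 30.7% of the log2 rise left. In polysomal RNA HRA1 had the largest fall of all named members (-3.87 ± 0.21, limma adjusted p = 1.2e-08). The polysomal arrays read 3.49, 3.43 and 2.60 relative to the array mean after 9 h of hypoxia and -0.79, -0.76 and -0.54 after recovery. They stayed above the 9 h non-stress arrays by 0.69 ± 0.21 (limma adjusted p = 0.016).

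AT3G23170 and AT4G24110, core hypoxia genes of unknown function, followed a like course. AT3G23170 read 9.95, 10.09 and 9.95 after 9 h of hypoxia and 6.77, 6.70 and 7.06 after recovery, against 4.51, 4.47 and 4.27 in non-stress. AT4G24110 read 9.30, 9.72 and 9.22 after 9 h of hypoxia and 6.34, 6.94 and 6.04 after recovery, against 4.28, 4.23 and 4.08 in non-stress. For both genes the recovered arrays lay above all 3 non-stress arrays, and 43.5% and 43.1% of their log2 rises were left. Their polysomal falls were -3.30 ± 0.17 and -3.80 ± 0.28 (limma adjusted p = 1.2e-08 and 2.3e-07). AT5G66985, also of unknown function, was higher by 4.29 and 4.74 and kept 47.9%, and its polysomal RNA fell (-2.72 ± 0.16, limma adjusted p = 2.4e-08).

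**Figure D2:**
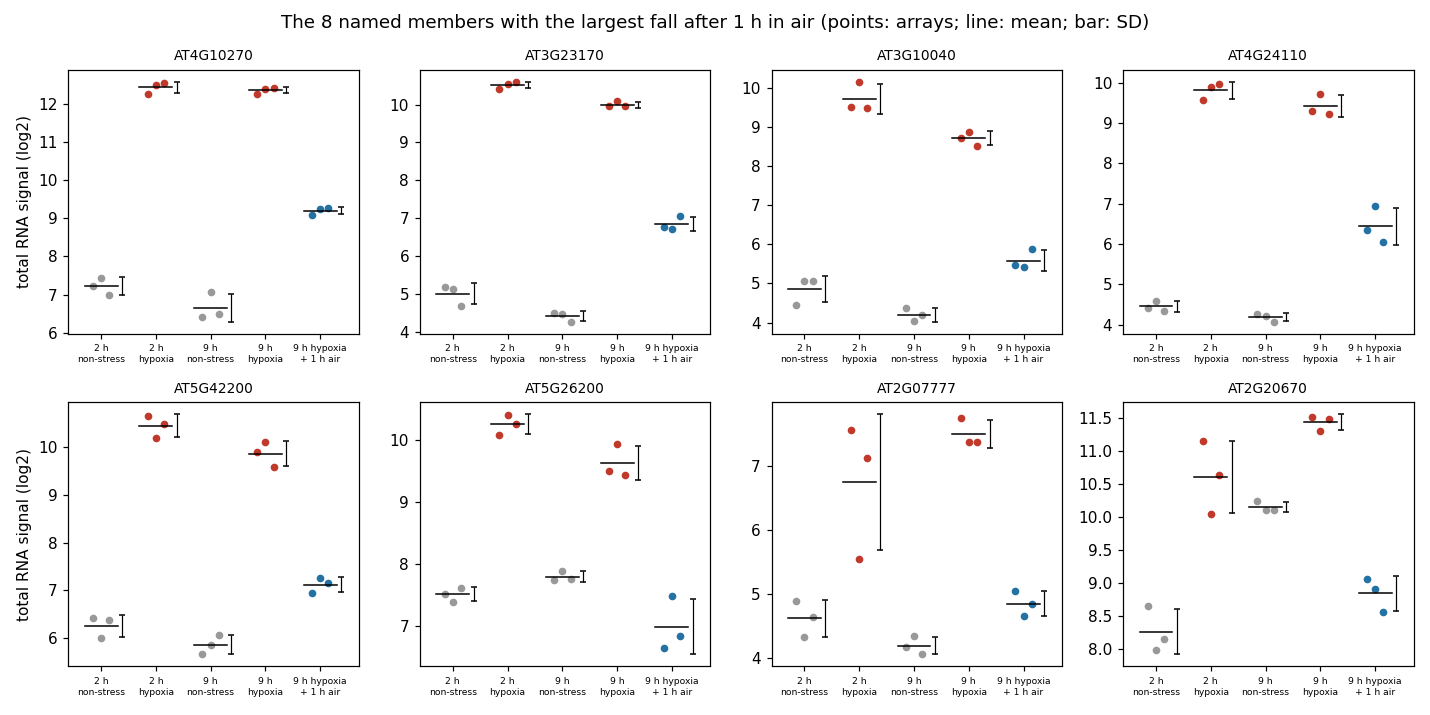
Total RNA signal (log2, vertical axis) of the 8 named members with the largest fall, in the 5 conditions, with a point per array, a line at the mean and a bar for the SD (n = 3). In all 8 the 3 recovery arrays lie below the 3 arrays of 9 h hypoxia, which the rule favours. For AT5G26200 and AT2G20670 they also lie below those of 9 h non-stress.

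RING finger genes were found among the named members. The RING finger gene AT5G42200, whose protein class includes ubiquitin ligases, read 9.90, 10.11 and 9.57 after 9 h of hypoxia and 6.95, 7.25 and 7.16 after recovery, against 5.67, 5.86 and 6.07 in non-stress. Its polysomal fall was -3.03 ± 0.24 (limma adjusted p = 3.3e-07), after which its polysomal level differed from non-stress by 0.34 ± 0.24 (limma adjusted p = 0.33). All 3 named RING finger members, AT5G42200, AT2G18670 and AT5G55970, passed in all 3 polysomal comparisons, with falls from -3.03 to -2.01. Of all probe sets 14.5% rose at 2 h, 20.4% rose at 9 h and 16.3% fell at recovery. The RING finger genes and the other families below were grouped after the members' names were seen.

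CML38, a calmodulin-like calcium sensor and core hypoxia gene, was the most induced of the named members and kept the most. In total RNA it read 3.68, 4.15 and 4.03 in non-stress and 11.01, 11.30 and 11.31 in hypoxia at 9 h, and 9.18, 9.60 and 9.86 after recovery. The recovered arrays were far closer to hypoxia, with 77.1% of the log2 rise left, and a change of -1.66 from 9 h hypoxia. Its polysomal RNA rose by 6.87 ± 0.29 at 9 h, fell (-1.73 ± 0.29, limma adjusted p = 0.00021), and remained 5.14 ± 0.29 above non-stress. Of the 10 other calcium genes listed that have a named probe set, 6 rose in total RNA from hypoxia to recovery (limma adjusted p under 0.05, where 13.5% of probe sets rose) and 4 did not pass. In polysomal RNA 6 of them rose at recovery too, where 17.6% of probe sets did.

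AT1G33055, a core hypoxia gene of unknown function, read 12.51, 12.59 and 12.53 after 9 h of hypoxia and 10.92, 11.07 and 10.85 after recovery, against 6.82, 7.37 and 7.14 in non-stress. It kept 70.7% of its log2 rise in total RNA. AT4G17670, an FCS-like zinc finger gene, kept 71.6%, with 9.12, 9.45 and 9.58 after 9 h of hypoxia and 8.13, 8.26 and 8.31 after recovery. The other FCS-like zinc finger member, AT1G74940, kept 24.6%. In polysomal RNA both AT4G17670 and AT1G74940 fell, with changes of -0.87 ± 0.19 and -2.14 ± 0.20 (limma adjusted p = 0.0019 and 1e-06); the difference between the genes was not tested. AT3G27220, a kelch repeat gene, kept 64.1%, and GAT1_2.1 65.9%.

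Over all members the share of the 9 h log2 rise that was left had a median of 35.6%. In 50 members the recovered mean was still at least 1 log2 unit above 9 h non-stress, in 27 it was within 0.5 of it, and in 18 it was below it. In polysomal RNA 56 members were above and 12 below 9 h non-stress after recovery (limma adjusted p under 0.05), where 15.6% and 18.4% of all probe sets were, and 43 did not pass. Leaving out replicates or arrays moved the count above to between 40 and 64.

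**Figure D3:**
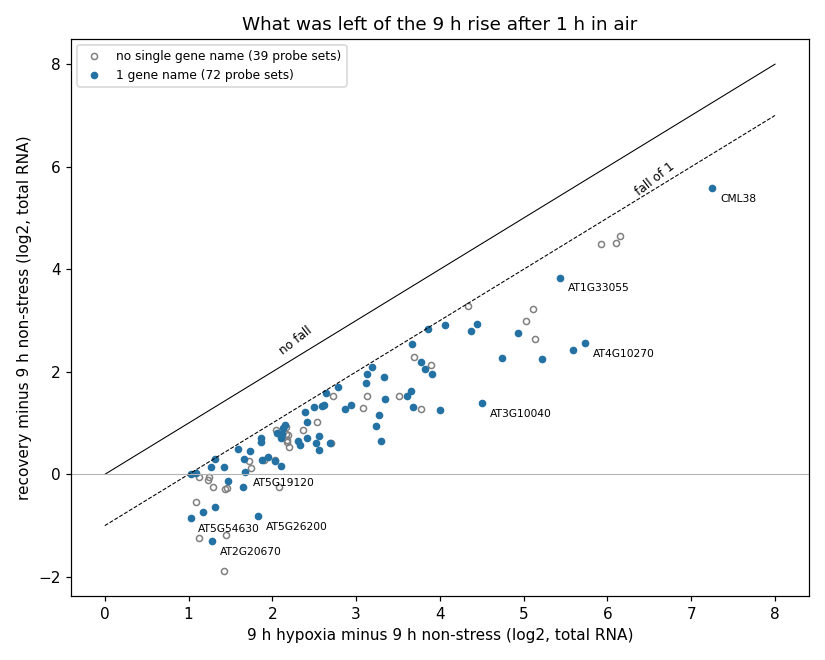
Recovery minus 9 h non-stress (vertical axis) against 9 h hypoxia minus 9 h non-stress (horizontal axis), both log2 in total RNA, with a point for each of the 111 members. The solid line marks no fall and the dashed line a fall of 1, below which all members lie by the rule. CML38 lies highest at 5.59, and 18 members lie below 0.

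In 9 members the total RNA mean after recovery was at least 0.5 below 9 h non-stress, which was taken 1 h earlier. Of the 9, 5 have a gene name, AT5G26200, AT2G20670, AT4G23870, AT4G28290 and AT5G54630, and the others have none in the probe table. AT5G26200, of the mitochondrial substrate carrier family and listed as a core hypoxia gene, read 7.74, 7.90 and 7.77 in non-stress, 9.51, 9.95 and 9.44 in hypoxia and 6.64, 7.49 and 6.83 after recovery. All 3 recovered arrays were below all 3 non-stress arrays. In polysomal RNA it was below 9 h non-stress after recovery too (-0.77 ± 0.17, limma adjusted p = 0.0027).

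AT2G20670, of the DUF506 family of unknown function, read 10.24, 10.11 and 10.10 in 9 h non-stress, 11.51, 11.30 and 11.49 in hypoxia and 9.06, 8.91 and 8.56 after recovery. The recovered arrays lay about as far below non-stress as hypoxia lay above it, with -102% of the log2 rise left. Its polysomal level ended below non-stress by a log2 change of -1.61 ± 0.25 (limma adjusted p = 0.00012). The related DUF506 gene AT3G07350 ended near non-stress, with a total RNA difference of 0.16 and a polysomal one of -0.46 (limma adjusted p = 0.32).

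AT5G54630, a zinc finger gene, read 7.31, 7.33 and 7.46 in non-stress, 8.41, 8.48 and 8.29 in hypoxia and 6.48, 6.65 and 6.41 after recovery. Its recovered arrays were all below its non-stress arrays. Its polysomal level ended lower than non-stress (-1.15 ± 0.16, limma adjusted p = 3.3e-05). AT4G28290 ended lower as well (-0.73 ± 0.21, limma adjusted p = 0.014), while AT4G23870 did not pass (-0.66 ± 0.28, limma adjusted p = 0.088). The aspartyl protease gene AT5G19120 and the ethylene response factor gene AT5G07580 were below non-stress in polysomal RNA (-0.50 and -0.54, limma adjusted p = 0.003 and 0.0097). Their total RNA means after recovery were 0.04 and 0.15 above non-stress.

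Non-stress levels themselves moved during the night for some of these genes. From 2 h to 9 h in non-stress, 12 members were higher by at least 1 and 3 were lower by at least 1 in total RNA, whereas 0.849% and 0.703% of all probe sets were. AT2G20670 was higher by 1.89 and AT4G28290 by 1.73 at the later time. For 71 members the difference was under 0.5.

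The cold-regulated pair COR27 and AT4G33980 (COR28), which act with the circadian clock, were the named members with the largest drop in non-stress, -2.38 and -1.61. COR27 read 6.15, 6.17 and 6.24 in 2 h non-stress and 7.07, 7.18 and 7.40 in 2 h hypoxia. At 9 h it read 3.88, 3.90 and 3.62 in non-stress, 7.62, 7.17 and 7.63 in hypoxia, and 6.46, 6.48 and 6.09 after recovery. Hypoxic levels were thus nearly the same at both times, differing by 0.26, and the larger difference at 9 h (3.67, against 1.03 at 2 h) came with the lower non-stress level. AT4G33980 differed by 0.21 between the hypoxic groups and was higher than non-stress by 2.09 at 2 h and 3.91 at 9 h.

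In polysomal RNA the pair parted. AT4G33980 rose at both times (1.72 ± 0.20 and 3.92 ± 0.20) and fell at recovery (-1.62 ± 0.20, limma adjusted p = 1.3e-05). COR27 was lower after 2 h of hypoxia (-0.60 ± 0.18, limma adjusted p = 0.018), a call that is lost when 1 of several arrays is left out, and higher after 9 h (2.11 ± 0.18, limma adjusted p = 1.8e-07). It was the only member that rose from hypoxia to recovery in polysomal RNA (1.23 ± 0.18, limma adjusted p = 6.3e-05). Its arrays read -0.33, -0.03 and 0.26 relative to the array mean after 9 h of hypoxia and 1.46, 1.11 and 1.02 after recovery, with no overlap, while its total RNA was lower in all 3 recovered arrays.

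The rises were compared between the times. In total RNA the 9 h rise was the larger in 73 members and the 2 h rise in 38. They differed by less than 0.5 in 51, the 9 h rise was larger by at least 1 in 24 and the 2 h rise by at least 1 in 7. In polysomal RNA the 9 h change exceeded the 2 h change in 23 members and was smaller in 6 (limma test of the difference, adjusted p under 0.05), where 6.89% and 9.86% of all probe sets were called. Without replicate 2 the higher count was 12, and without replicate 3 it was 11.

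Of the 71 named genes, 10 were grouped as transcription factor genes, and members without a gene name could not be grouped. In polysomal RNA 10 of these rose at 2 h, 9 rose at 9 h and 10 fell, where 14.5%, 20.4% and 16.3% of all probe sets did. The exception at 9 h was the Dof gene AT4G24060 (0.21 ± 0.13, limma adjusted p = 0.23), which lay at the threshold of the rule. Its fall at recovery (-0.38 ± 0.13) was lost when some arrays were left out, as was the rise of AT5G07580 at 9 h, and the fall of the B3 gene AT3G11580 (-0.61 ± 0.13) was lost without replicate 3. The 3 PLATZ zinc-binding genes AT5G46710, AT1G21000 and AT1G76590 passed in all 3 comparisons, with polysomal falls from -1.59 to -1.48, and the 2 h call of AT1G21000 was lost without replicate 3. AT1G25550 and AT1G68670, MYB-related homologues of HRS1, a regulator of phosphate and nitrate responses, rose and then fell (-2.21 ± 0.23 and -2.48 ± 0.23, limma adjusted p = 3.6e-06 and 1e-06). PYE, a bHLH factor of the iron deficiency response, read 4.66, 4.81 and 4.87 in 9 h non-stress, 6.95, 6.78 and 6.95 in hypoxia and 5.61, 5.62 and 5.49 after recovery, and its polysomal RNA fell (-1.66 ± 0.15, limma adjusted p = 7.5e-07).

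GID1A, ARL and PCME are tied to hormones: GID1A is a gibberellin receptor, ARL an ARGOS-like growth regulator of brassinosteroid signalling, and PCME acts on prenylated proteins of abscisic acid signalling. GID1A read 6.78, 6.84 and 7.09 in 9 h non-stress, 9.05, 9.02 and 9.00 in hypoxia and 7.65, 8.02 and 7.73 after recovery. All 3 genes passed in each polysomal comparison, where 14.5% and 20.4% of all probe sets rose and 16.3% fell. Their falls ran from -1.81 to -0.58, the smallest being ARL (limma adjusted p = 0.012). That call was lost without replicate 2.

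The members include 3 genes for TIR domain proteins, a class known from plant immune receptors, at 1 place on chromosome 1: AT1G72890, AT1G72920 and AT1G72940. Between AT1G72890 and AT1G72920 lie 2 genes of the RefSeq table, and between AT1G72920 and AT1G72940 lies 1. AT1G72920 read 3.60, 3.58 and 3.44 in 9 h non-stress, 6.20, 6.12 and 6.38 in hypoxia and 4.16, 4.35 and 3.95 after recovery. After 2 h of hypoxia it read 7.18, 5.82 and 7.89, with replicate 2 again lowest. All 3 TIR genes rose in polysomal RNA at both times, where 14.5% and 20.4% of all probe sets did. At recovery AT1G72890 and AT1G72920 fell (-1.72 ± 0.31 and -2.02 ± 0.37, limma adjusted p = 0.00037 and 0.00054), where 16.3% of all probe sets did. AT1G72940 did not pass (-0.60 ± 0.23, limma adjusted p = 0.057).

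The TIR gene AT1G72900, which lies among them and is no member, was higher by 1.89 and 3.16 in total RNA at 2 h and 9 h. At recovery its change was 0.52 (limma adjusted p = 0.23), and its polysomal change did not pass either (limma adjusted p = 0.45). The other genes there with a named probe set, AT1G72870, AT1G72950 and AT1G72960, had total RNA changes between -0.11 and 0.15. Genes of such a group are alike in sequence, and how far their probe sets pick up each other's RNA was not tested.

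AT1G67910 and AT1G67920 are neighbours on chromosome 1 with no gene between them in the RefSeq table. Their total RNA was higher by 1.72 and 2.45 at 2 h and by 2.55 and 3.12 at 9 h, with recovery changes of -1.81 and -1.34. Their polysomal RNA fell as well (-1.17 ± 0.16 and -1.02 ± 0.19, limma adjusted p = 3e-05 and 0.00064). On chromosome 2, AT2G36950, for a heavy-metal-associated protein, and AT2G36970, for a UDP-glycosyltransferase, have 1 gene between them and had recovery changes of -1.24 and -1.65. By chromosome the named genes number 20, 13, 12, 10 and 14 on chromosomes 1 to 5.

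AT5G54130, of a family of calcium-binding nucleases and phosphatases, is the only gene with a pair of probe sets in the set. One read 9.26, 9.47 and 9.41 after 9 h of hypoxia and 7.09, 7.17 and 7.63 after recovery, and the other 10.00, 9.83 and 9.65 and then 8.09, 7.69 and 8.09. The pair gave recovery changes of -2.08 and -1.87 in total RNA and of -2.58 ± 0.32 and -2.16 ± 0.16 in polysomal RNA (limma adjusted p = 1.6e-05 and 2.3e-07). The DUF1645 genes AT1G70420 and AT1G23710 differed more: the first kept 18.8% of its log2 rise and the second 59.8%. Their polysomal falls were -3.03 ± 0.23 and -0.73 ± 0.25 (limma adjusted p = 2.4e-07 and 0.037), and the second call was lost when some arrays were left out.

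In the median, polysomal changes were a little smaller than total RNA changes at the rises and larger at the fall. The median of polysomal minus total change was -0.22 at 2 h, -0.22 at 9 h and -0.21 at recovery. At 9 h the polysomal rise was smaller by at least 1 in 17 members and larger by at least 1 in 2. The polysomal fall was the larger in 68 members. These differences set mean-centred polysomal values against mean-centred total values and were not tested. The rule chose the members by their total RNA changes, which favours larger changes in that pool.

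**Figure D4:**
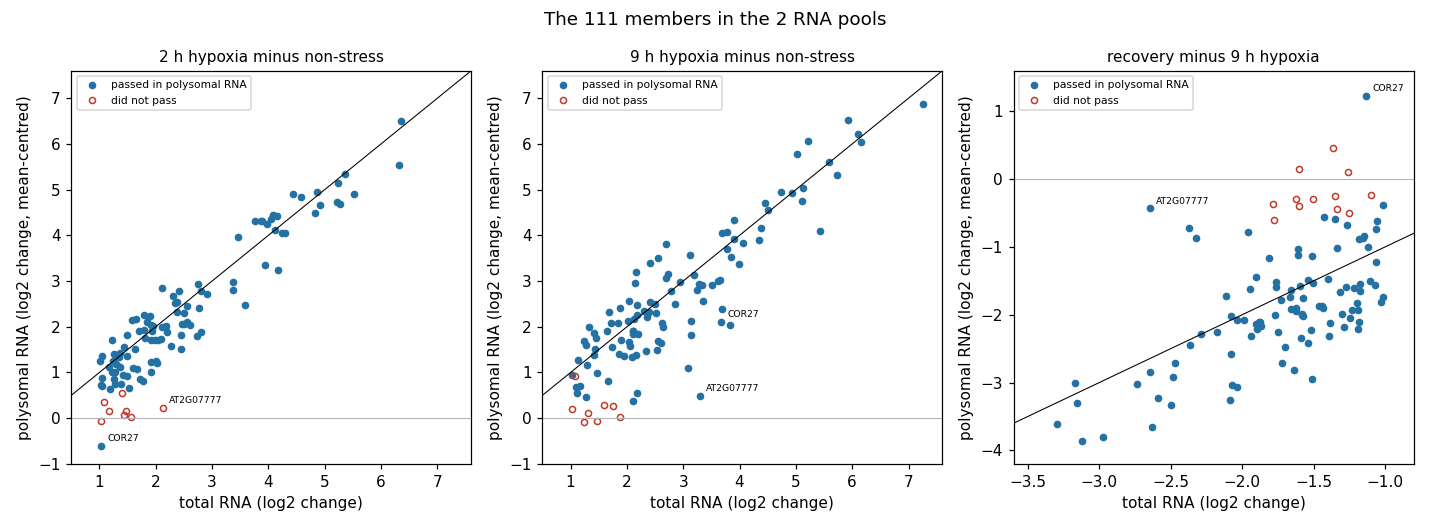
Polysomal change (vertical axis, log2, mean-centred) against total RNA change (horizontal axis, log2) of the 111 members at 2 h, at 9 h and at recovery. The line marks equal change, filled points passed in polysomal RNA (limma adjusted p under 0.05) and open points did not. Most points lie near the line, open points lie near 0, and COR27 is the filled point above 0 at recovery.

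The exceptions include RNA of mitochondria. The genes ccb452, for a cytochrome c maturation protein, and cox1, for cytochrome c oxidase subunit 1, are encoded in the mitochondrial genome and are translated on mitochondrial ribosomes, which do not carry the tagged protein. AT2G07777 lies in the stretch of chromosome 2 that is known as an insertion of mitochondrial DNA. In total RNA cox1 read 5.56, 5.96 and 5.52 in 9 h non-stress, 7.59, 8.22 and 7.52 in hypoxia and 6.50, 6.52 and 6.26 after recovery. AT2G07777 read 4.18, 4.34 and 4.07 in 9 h non-stress, 7.75, 7.37 and 7.37 in hypoxia and 5.05, 4.67 and 4.85 after recovery. Both genes were higher in hypoxia by the rule, and AT2G07777 was among the 8 largest named falls.

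In polysomal RNA these 3 genes were dim and nearly flat. They ranked at the 74.8th to 81.1st percentile of total RNA signals after 9 h of hypoxia, and at the 29.2nd to 37.3rd of polysomal signals. AT2G07777 read -2.12, -2.20 and -2.14 relative to the array mean in 9 h non-stress and -1.63, -1.89 and -1.47 in hypoxia. For ccb452 the polysomal changes were 0.03 ± 0.19 at both times and 0.15 ± 0.19 at recovery (limma adjusted p = 0.95, 0.92 and 0.59). cox1 and AT2G07777 did not pass at 2 h and passed at 9 h with small changes (0.39 ± 0.11 and 0.49 ± 0.14, limma adjusted p = 0.0092 and 0.009). AT2G07777 fell at recovery (-0.43 ± 0.14, limma adjusted p = 0.026) and cox1 did not pass (-0.25 ± 0.11, limma adjusted p = 0.094). The calls of both genes at 9 h, and of AT2G07777 at recovery, were lost when some arrays or replicates were left out.

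A pair of nuclear genes was as flat. AT4G30680, related to the translation initiation factor eIF4G through its MA3 domain, read 4.79, 4.64 and 4.78 in 9 h non-stress, 6.42, 6.11 and 6.45 in hypoxia and 5.19, 5.26 and 5.23 after recovery in total RNA. Its polysomal changes were 0.15 ± 0.15, 0.28 ± 0.15 and -0.24 ± 0.15 (limma adjusted p = 0.55, 0.15 and 0.26). AT2G27830 read 7.65, 7.56 and 7.55 in 9 h non-stress, 9.10, 9.02 and 9.07 in hypoxia and 7.70, 7.34 and 7.35 after recovery. Its polysomal changes were 0.06 ± 0.23, -0.05 ± 0.23 and -0.39 ± 0.23 (limma adjusted p = 0.89, 0.88 and 0.21), and at the 79.3rd percentile of polysomal signals it was not dim. With ccb452, these are the 3 members that passed in no polysomal step. AT4G30680, at the 48th percentile, lay near the middle of the polysomal signals.

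**Figure D5:**
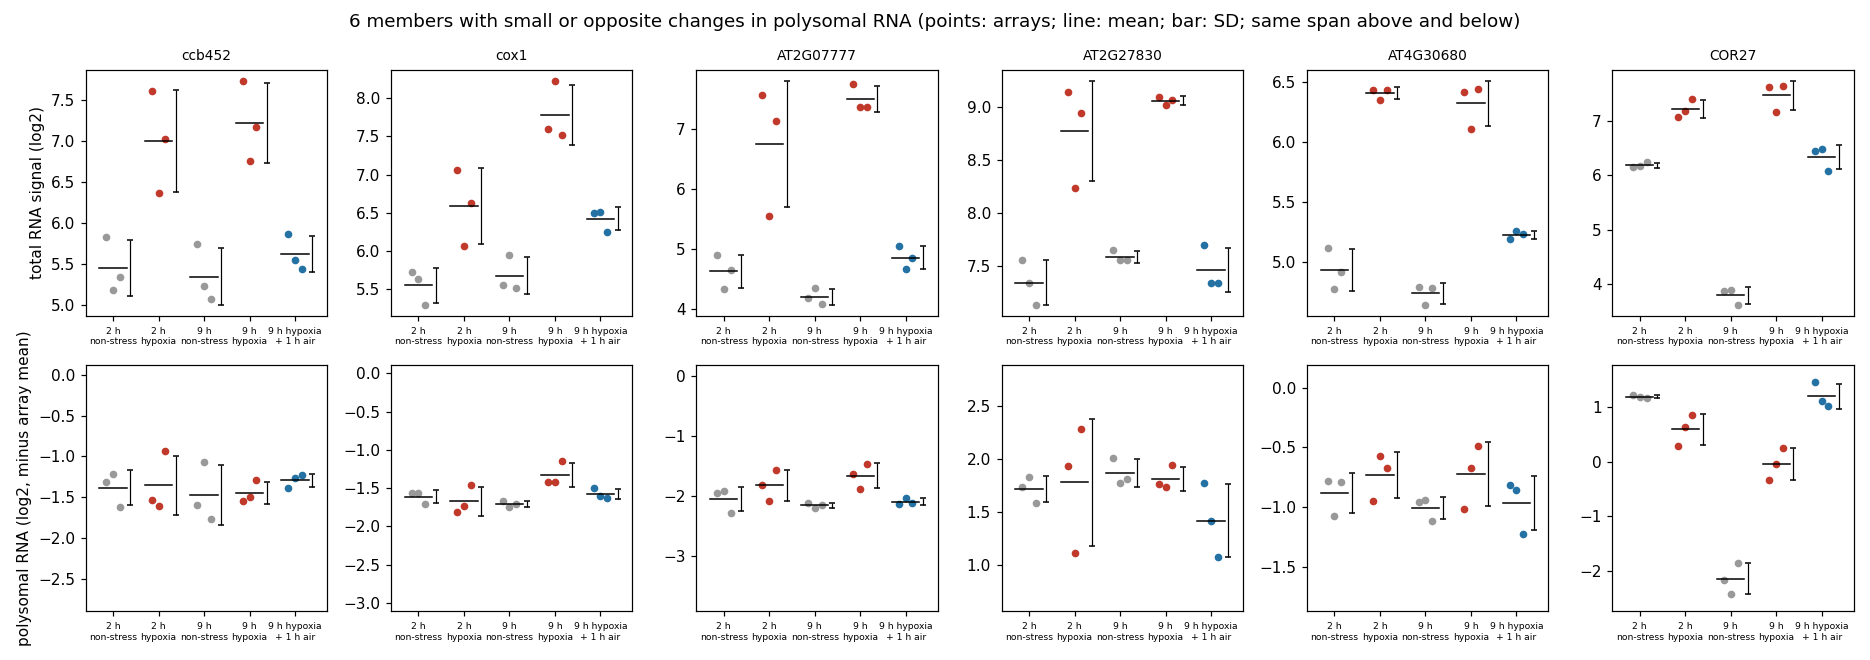
Signals of 6 members in total RNA (upper row, log2) and polysomal RNA (lower row, log2 minus the array mean) in the 5 conditions, with a point per array, a line at the mean and a bar for the SD (n = 3). Each gene has the same span on both axes. The first 5 genes are nearly flat in polysomal RNA, and COR27 is highest after recovery and in 2 h non-stress.

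Other members passed in part. AT2G47720 rose at both times in polysomal RNA and did not pass at recovery (0.10 ± 0.23, limma adjusted p = 0.79), staying 2.17 ± 0.23 above non-stress. The cupin gene AT4G28703 did not pass at recovery either (-0.50 ± 0.30, limma adjusted p = 0.23). AT4G23870 rose at 2 h (1.02 ± 0.28, limma adjusted p = 0.012), did not pass at 9 h (0.12 ± 0.28, limma adjusted p = 0.77) and fell at recovery (-0.78 ± 0.28, limma adjusted p = 0.045). Its calls at 2 h and at recovery were lost when single arrays were left out. Of the 39 probe sets without a single gene name, 37 rose at 2 h, 36 rose at 9 h and 34 fell at recovery in polysomal RNA. Over all probe sets these shares were 14.5%, 20.4% and 16.3%.

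Of 50 genes listed as core hypoxia genes, 29 have a named probe set and 16 of these are members. Of the 13 that are not members, 9 rose in total RNA at 2 h (limma adjusted p under 0.05), where 9.18% of all probe sets rose, and 10 rose at 9 h, where 22.2% did. At recovery 4 of the 13 fell and 2 rose, where 10.7% and 13.5% of all probe sets did. Their median changes in total RNA were 2.73, 2.82 and -0.27, against -0.01, 0.03 and -0.04 over all probe sets. In polysomal RNA, which the rule did not use, 26 of all 29 rose at 2 h, 27 rose at 9 h and 19 fell, where 14.5%, 20.4% and 16.3% of all probe sets did. Of the 13, 4 fell there. The list and the members were both chosen with results of these data known. Some listed genes outside the set were as high under hypoxia: AT5G10040 was higher by 6.69 and 7.57 and changed by -0.94 at recovery, and AT1G19530 by 5.88 and 6.27 with a recovery change of -0.29.

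Neither of the 2 named genes of the fermentation list is a member: PDC2, a pyruvate decarboxylase, was higher by 2.73 and 5.33 and AT4G17260, a lactate dehydrogenase, by 2.15 and 2.44. Their total RNA changes at recovery were -0.27 and -0.76 (limma adjusted p = 0.048 and 0.019), short of the threshold of the rule. In polysomal RNA both fell, with changes of -2.11 ± 0.14 and -1.93 ± 0.13 (limma adjusted p = 1.3e-07 and 1.4e-07), beside a median of -1.82 over the members. The heat shock list also gave 0 members, with 6 of 6 named genes higher at 9 h and 5 of 6 rising further at recovery in total RNA (limma adjusted p under 0.05), where 22.2% and 13.5% of all probe sets rose. The 2 named genes of 20 on the ethylene list and the 3 of 33 on the stress transcription factor list gave 0 members. The fermentation list holds 12 genes and the heat shock list 20. Most genes of these lists thus have no named probe set, and 38 members have no gene name. Whether unnamed members belong to these lists is not known. No gene of the jasmonate or seed lists has a named probe set here.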

How the data were processed

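Total and polysomal RNA of 5 conditions was measured on 30 arrays, in 3 independent biological experiments per the labels. The deposited values are log2 signals, for which the submitters' processing notes name RMA; the sources used here give neither its version nor the step that set the polysomal arrays lower. The 64 control probe sets of 22810 were not used; the probe table names 1 gene for 13513 probe sets, several for 503 and none for 8730.

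Members were found on the deposited total RNA means. Polysomal arrays were each centred on their mean and fitted with limma 3.58.1 in R 4.3.3 (15 arrays, 1 mean per group, Benjamini-Hochberg over all 22746 probe sets, threshold 0.05, no filter); total RNA was fitted likewise for lists and backgrounds. The script was checked on simulated data. The number of arrays is one limit on the precision.

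The members and lists were chosen with earlier results of these data known, and the lists came from general knowledge. Named genes are the largest and smallest falls, rises and shares left, members on a list, and those nearest each threshold; the family members and neighbours were added after values were seen. Same-numbered polysomal arrays deviated together for 9 h hypoxia against non-stress (correlations 0.106 to 0.18) and for recovery against 9 h hypoxia (0.237 to 0.269), but not in every pair at 2 h (0.0165 to 0.176). In total RNA every pair did so at 2 h (0.13 to 0.47) and at recovery (0.222 to 0.442), but not at 9 h (0.0306 to 0.28). The fits have no block. Alternatives were other array scalings, all 30 arrays in 1 fit, a replicate block, a filter on dim probe sets, other thresholds and left-out replicates or arrays.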

Additional observations from a re-analysis of the deposited data

Results flagged for a closer look

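For 19 named members the polysomal change at 9 h differed from that at 2 h, by limma's test of the difference (adjusted p under 0.05 over all probe sets, where 6.89% of probe sets were called higher and 9.86% lower). COR27 differed most, by 2.71 ± 0.25 (SE, adjusted p = 1.3e-05), followed by AT4G33980 with 2.20 ± 0.28 (adjusted p = 0.00012) and AT1G70420 with 2.11 ± 0.32 (adjusted p = 0.00045). AT2G36220 differed by 2.01, AT2G15880, a leucine-rich repeat extensin gene, by 1.81, AT1G67920 by 1.74 and AT4G17670 by 1.52. AT1G76590 differed by 1.40, the heme-binding SOUL gene AT1G78450 by 1.37, AT1G30260 by 1.305, AT2G25735 by 1.23 and AT2G47720 by 1.14. AT5G66985 differed by 0.89, AT1G67910 by 0.83 and AT1G10140 by 0.72, the last with an adjusted p of 0.035. In the other direction, AT5G26200 differed by -0.87, AT3G02555 by -0.94, AT5G54630 by -0.97 and AT1G03610 by -1.15, with adjusted p from 0.0069 to 0.025. Each difference rests on 4 groups of 3 arrays. The non-stress level also moved for some, by -3.34 in polysomal RNA for COR27 and by -2.07 for AT4G33980.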

How the results depend on the processing

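The rule gave 111 members at a threshold of 1, 187 at 0.8 and 82 at 1.2. Other scalings gave 114 (array mean subtracted), 139 (array median) and 116 (quantile), medians of 3 arrays gave 113, a filter on dim probe sets 110, and left-out replicates or arrays 102 to 124. Members with all 3 polysomal steps numbered 75, 38 on deposited values and 70 to 78 with replicates left out, settings chosen after seeing the data. With replicates or arrays left out, members called in polysomal RNA ranged from 89 to 103 at 2 h, 99 to 104 at 9 h, 88 to 100 at recovery, 40 to 64 for recovery above non-stress and 11 to 27 for a larger change at 9 h than at 2 h. With the replicate number as a block these counts were 102, 104, 99, 58 and 26, and no count moved by over 1.5 times. Over all probe sets, total RNA calls were 5178, 10797 and 5500 at 2 h, 9 h and recovery, with ranges of 2203 to 4237, 8348 to 10459 and 2946 to 4738 without a replicate; with the block they were 6438, 11825 and 6890. The split of those calls moved with median centring to 9212 up and 4532 down at 9 h (5048 and 5749 as deposited) and to 2380 up and 4835 down at recovery (3068 and 2432). On deposited polysomal values 586 rose and 19950 fell at 2 h, since the arrays' means differ by condition.

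On deposited polysomal values 16 results of named genes turned their sign and were called in either setting. Sign changes of results called in neither were not counted. At 2 h these were AT2G07777 (-0.60), AT4G28290 (-0.0156), ccb452 (-0.80), AT2G27830 (-0.76) and AT4G30680 (-0.68). At 9 h they were AT2G07777 (-0.52), AT4G23870 (-0.90), AT4G28290 (-0.30), AT5G54630 (-0.0634), ccb452 (-0.99), cox1 (-0.63) and AT4G30680 (-0.74). At recovery they were AT2G07777 (0.42), AT4G23870 (0.0777), cox1 (0.60) and AT4G30680 (0.62). Of all the named genes' results under the alternatives, 2001 kept their side of the threshold, and their direction where they were called. A further 46 lost the call and 16 gained one. Signal over background limits the dim polysomal values of mitochondrial genes.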
